A study of Mus musculus with 24 samples.

Results

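The genes described are the 10 that encode the murine major histocompatibility complex (MHC) class II antigen presentation machinery: Cd74, H2-Aa, H2-Ab1, H2-Eb1, H2-DMa, H2-DMb1, H2-DMb2, H2-Oa, H2-Ob and Ciita. They were taken by symbol from a fixed list, and each was found in all of the data, as 10 of the 33967 gene names shared by the surface RNA tables and 10 of the 55335 genes of the blood cell tables. Surface RNA means RNA exposed on the outer membrane of intact cells. It was profiled with AMOUR, in which fixed cells are held on lectin beads and their exposed RNA is amplified in place with T7 RNA polymerase. The authors state that AMOUR, like other methods, enriches candidates and cannot wholly exclude RNA from inside the cell. There were 15 AMOUR libraries, 3 from each of 5 cell types of C57BL/6 mice of WT genotype that carried no other stated treatment. B cells, T cells (taken with a kit for CD8 cells) and natural killer (NK) cells came from spleen, whereas monocytes and the blood-forming stem and progenitor cells (HSPCs) came from bone marrow. A further 9 libraries profiled total RNA from mononuclear cells of the blood (PBMCs) of wild type genotype, 3 in each of the groups ct, WT and Y, names that the labels leave unexplained. The ages of the animals, whether replicates came from separate animals, and the strain of the PBMC donors are not given in the labels, so p-values measure the spread between these libraries, which may in part be technical.

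MHC class II molecules are α and β chain pairs that show peptides from engulfed proteins to helper T cells, and they are borne above all by B cells, dendritic cells and macrophages. In the endoplasmic reticulum the pair is held by the invariant chain, the product of Cd74, which is cut away later by proteases such as cathepsin S. H2-DM then exchanges the remaining invariant chain fragment for a peptide, and H2-DO restrains H2-DM. The transactivator CIITA switches on class II genes through proteins bound to the X and Y boxes of their promoters.

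Because class II promoters are known for their X and Y boxes, the stretch around the Y box is shown for each gene that had it. RefSeq promoter entries (build GRCm38.p6) were at hand for 7 of the 10 genes. The 250 bases before the start site held the Y-box core TGATTGG in 6 of the 7, each time in the orientation of the gene, whereas 7.23% of all 32851 promoter entries held it on either strand. The letters AAC and ATGATG set 2 bases apart, which cover most of the X box in H2-DMb1, H2-DMb2, H2-Ob and H2-Eb1, were present in those 4 genes and in 0.119% of all entries. This pattern was written down after these promoters had been read, and it does not overlap the Y-box core. The windows below run 5′ to 3′ along the gene, with both matches in capitals.
H2-Aa (chr17:34287859-34287923, minus strand): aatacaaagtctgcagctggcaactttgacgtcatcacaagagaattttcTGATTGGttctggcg
H2-Eb1 (chr17:34305756-34305820, plus strand): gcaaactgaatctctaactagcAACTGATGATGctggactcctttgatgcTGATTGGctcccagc
H2-DMb1 (chr17:34153078-34153142, plus strand): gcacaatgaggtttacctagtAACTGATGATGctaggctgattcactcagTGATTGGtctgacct
H2-DMb2 (chr17:34145107-34145171, plus strand): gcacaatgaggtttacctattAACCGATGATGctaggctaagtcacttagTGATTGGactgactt
H2-Oa (chr17:34092284-34092348, plus strand): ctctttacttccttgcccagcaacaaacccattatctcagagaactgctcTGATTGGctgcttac
H2-Ob (chr17:34238796-34238860, plus strand): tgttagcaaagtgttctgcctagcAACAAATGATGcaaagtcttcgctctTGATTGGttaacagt
The X and Y matches stood 15 to 18 bases apart in the 4 genes with both. The windows of H2-DMb1 and H2-DMb2, which encode alternative β chains of H2-DM, differed at 7 of 65 bases. Neither entry of H2-DMa held either motif, which says only that these letters are not in the windows searched.

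Surface levels are given in TPM, the length-corrected share of a library that falls on a gene, scaled to a fixed total and summed over its transcripts. TPM keeps no depth, so the depth of the surface libraries is unknown and no counting intervals are given. A feature of these libraries bears on every comparison that involves monocytes. Protein-coding transcripts held 16.9% to 18.1% of a monocyte library but 0.645% to 2.96% of a library of the other types and a different sequencing platform was used for the monocyte libraries. Platform and cell type cannot be told apart for monocytes, and levels on a scale of protein-coding transcripts alone are therefore given beside theirs. That scale leaves out the other transcripts of the same genes, such as those that retain an intron. The fixed marker lists were highest in the cells they name, as summed TPM, for B cells (312 to 478, against at most 28.6 elsewhere), T cells (41.0 to 121, against 14.7), NK cells (93.9 to 274, against 32.5) and monocytes (3012 to 3598.5, against 35.4). The HSPC list did not set its cells apart, with 10.7 to 16.4 in HSPCs and up to 29.2 in monocytes.

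In B cells the 10 genes together reached 1313 to 1719 TPM, against 207 to 249.8 in NK cells, 110 to 134 in monocytes, 6.30 to 8.65 in T cells and 3.16 to 6.33 in HSPCs. The protein-coding transcripts of the 10 genes, without their other transcripts, made up 4.73% to 5.15% of all protein-coding transcripts in B cells and 0.617% to 0.953% in NK cells. The shares were 0.0559% to 0.0684% in monocytes, 0.0249% to 0.0574% in T cells and 0.0227% to 0.0240% in HSPCs. B cells held the highest level of 8 of the 10 genes in TPM and of all 10 on the protein-coding scale, and in each of these cases every B cell library lay above every other library.

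**Figure D1:**
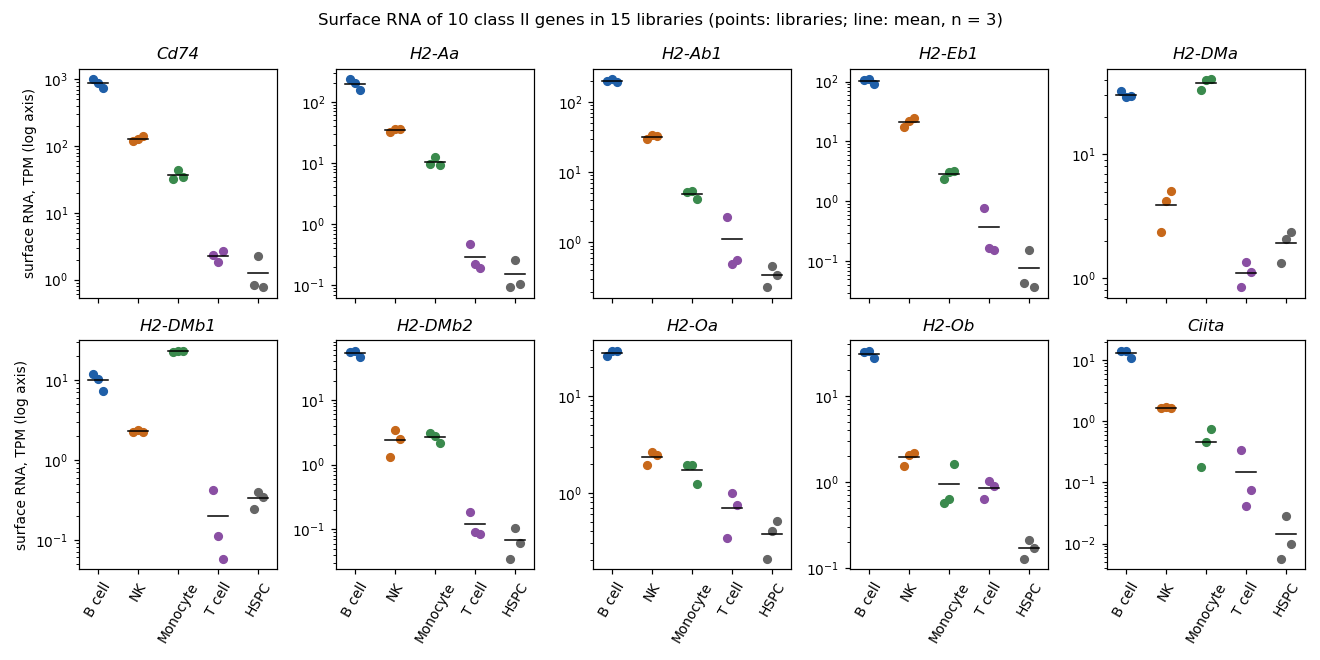
Surface RNA level of each of the 10 genes in TPM on a log axis, with 1 point per library and a line at the mean of 3 libraries. B cells are highest for 8 genes, whereas H2-DMa and H2-DMb1 are highest in monocytes on this scale.

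The invariant chain gene Cd74 was the most abundant of the set in B cells, at 1009.6, 879.5 and 728 TPM. It read 118, 129.5 and 139.5 TPM in NK cells and 31.7, 44.4 and 34.8 TPM in monocytes, and did not exceed 2.72 TPM in T cells or 2.22 TPM in HSPCs. The ranges of B cells, NK cells, monocytes and T cells did not overlap, while those of T cells and HSPCs did. On the protein-coding scale Cd74 stood at 27551 ± 260 TPM of protein-coding transcripts in B cells (SD, n = 3) and 3951 ± 802 in NK cells. There the monocytes, at 199 ± 44.0, overlapped the T cells, at 122.8 ± 63.3.

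H2-Aa and H2-Ab1, the α and β chains of the I-A molecule, followed the same order. H2-Aa measured 236, 202 and 156 TPM in B cells, whereas NK cells gave 31.5, 35.8 and 36.5 and monocytes 9.62, 12.3 and 9.12, with at most 0.469 in T cells and 0.257 in HSPCs. H2-Ab1 measured 195, 211 and 189 TPM in B cells, followed by NK cells at 29.6, 33.4 and 32.9, monocytes at 5.26, 5.43 and 4.17 and HSPCs at 0.230 to 0.464. The I-A chains were thus close to balance in B cells, where the ratio of H2-Aa to H2-Ab1 within a library was 0.998 ± 0.198, and in NK cells, at 1.08 ± 0.0244. In monocytes the ratio was 2.10 ± 0.232, and its libraries did not overlap those of B cells (exact two-sided permutation p = 0.1, the smallest that 3 against 3 libraries allows, adjusted p = 0.133 over 8 ratio tests chosen after the values were seen). H2-Ab1 in T cells rested on replicate 1, which had 2.28 TPM against 0.490 and 0.558 in the others.

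H2-Eb1, the β chain of the I-E molecule, had 106, 111 and 89.6 TPM in B cells, while NK cells had 17.5, 21.6 and 24.8 and monocytes 2.37, 3.04 and 3.16. T cells read 0.151 to 0.785 TPM and HSPCs 0.0369 to 0.153, with overlap. Its ratio to H2-Ab1 within a library was 0.515 ± 0.0364 in B cells, 0.662 ± 0.0829 in NK cells and 0.589 ± 0.156 in monocytes, where the monocyte libraries overlapped both other types and those of B and NK cells did not overlap. Its partner, the I-E α chain gene H2-Ea, was listed at 0 in all T cell, HSPC and monocyte libraries and reached at most 0.107 TPM in B cells and 0.0258 in NK cells. C57BL/6 mice are known to lack an expressed I-E α chain. H2-Eb2, a related β chain gene, had 3.18 ± 0.575 TPM in B cells and 0.444 ± 0.0784 in NK cells, and was listed at 0 in monocytes.

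The genes of H2-DM departed from the order of the chains they serve. H2-DMa, the α chain of H2-DM, read 32.7, 29.3 and 29.5 TPM in B cells and 32.9, 40.2 and 40.7 in monocytes, so that monocytes lay above B cells. NK cells had 2.39, 4.24 and 5.05 TPM, HSPCs 1.33 to 2.36 and T cells 0.847 to 1.35. On the protein-coding scale the order of the first 2 groups turned, with 1240 ± 161 TPM in B cells and 215 ± 28.9 in monocytes. Within a library, where a common factor cancels, H2-DMa stood at 0.158 ± 0.0278 times H2-Aa in B cells and at 3.72 ± 0.654 times in monocytes, with no overlap (exact two-sided permutation p = 0.1, the smallest possible, adjusted p = 0.133). H2-DMa overlaps Brd2 on the opposite strand, and 9.23% of its 31-base words are shared with that gene.

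The β chain of H2-DM is made from either of a pair of neighbouring genes, and B cells and monocytes differed in which of them was read. H2-DMb2 had 55.4, 58.0 and 47.0 TPM in B cells but 3.09, 2.82 and 2.13 in monocytes. H2-DMb1 had 11.99, 10.2 and 7.34 TPM in B cells and 22.6, 23.0 and 23.2 in monocytes. The ratio of H2-DMb2 to H2-DMb1 within a library ran from 4.62 to 6.40 in B cells and from 0.0921 to 0.137 in monocytes, a gap of 47.7-fold between the mean log2 ratios. The exact two-sided permutation p was again 0.1, the smallest possible, and 0.133 after adjustment. NK cells (0.588 to 1.45) and T cells (0.431 to 1.46) lay on either side of 1, and HSPCs (0.142 to 0.267) were nearer to monocytes. NK cells had 1.31, 3.43 and 2.48 TPM of H2-DMb2 and 2.21 to 2.36 of H2-DMb1, and in T cells and HSPCs both genes were at most 0.423 TPM.

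In whole PBMCs the total RNA gave ratios above 1, as in B cells, at 5.08 to 5.84 for ct, 3.80 to 5.66 for WT and 3.85 to 5.82 for Y. These ratios come from mixed cells, another kind of RNA and another quantifier, so they are not like for like. They rest on 19 to 45 counts of H2-DMb1 per library. The pair of genes share sequence. Of the 31-base words of the H2-DMb1 transcripts in the GENCODE M21 annotation, 31.4% also occur in H2-DMb2, so that part of the reads could be divided wrongly and the smaller of the levels in each cell type is uncertain. In monocytes H2-DMb2-203 held 2.68 ± 0.492 TPM, nearly all of the gene's level, whereas in B cells H2-DMb2-201 held 51.6 ± 5.50 and H2-DMb2-203 only 1.37 ± 0.569.

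**Figure D2:**
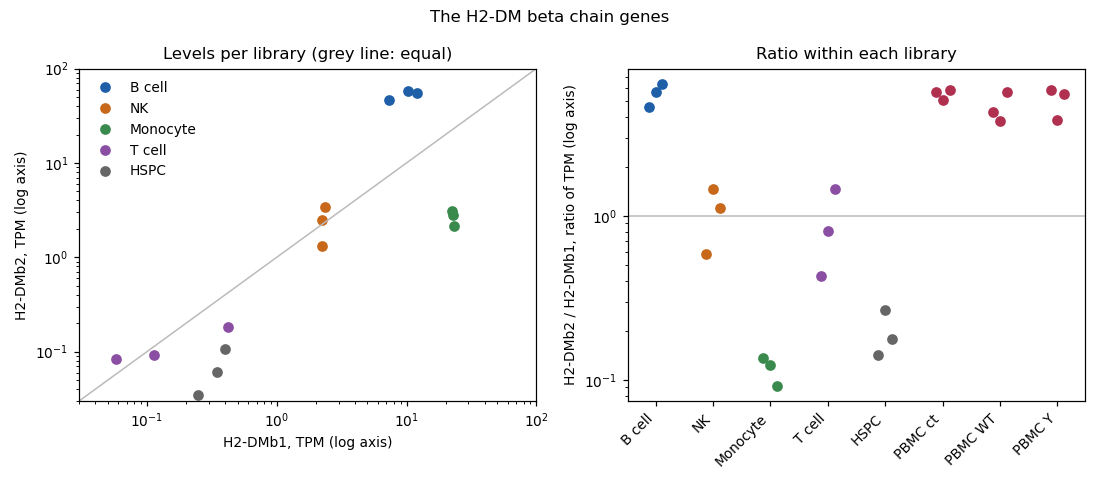
Left, TPM of H2-DMb2 against H2-DMb1 in the 15 surface libraries on log axes, with a grey line where both are equal. Right, the ratio within each surface and PBMC library on a log axis, at 4.62 to 6.40 in B cells, 0.0921 to 0.137 in monocytes and 3.80 to 5.84 in PBMCs.

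H2-Oa and H2-Ob, the chains of H2-DO, and the transactivator gene Ciita were highest in B cells by a wide margin. H2-Oa had 25.7, 29.0 and 29.5 TPM in B cells, with NK cells at 1.95, 2.62 and 2.48, monocytes at 1.95, 1.94 and 1.24, T cells at 0.339 to 0.996 and HSPCs at 0.207 to 0.511. H2-Ob had 32.4, 33.6 and 27.2 TPM in B cells, and its NK cells (1.55 to 2.19), monocytes (0.577 to 1.61) and T cells (0.632 to 1.02) formed a row of overlapping neighbours, with HSPCs below them at 0.128 to 0.215. H2-Oa shares 18.3% of its 31-base words with the antisense gene BC051537, and H2-Ob shares none with other genes. Ciita had 14.4, 14.0 and 10.7 TPM in B cells, against 1.66, 1.72 and 1.66 for NK cells and 0.176, 0.451 and 0.745 for monocytes. T cells, at 0.0415 to 0.334, overlapped the monocytes. In HSPCs it did not exceed 0.0281 TPM. As percent of the B cell mean, monocytes had 3.51% of Ciita, beside 2.499% to 5.23% of the 4 chain genes, 124% of H2-DMa and 232.5% of H2-DMb1.

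On the protein-coding scale the place of the monocytes shifted for several genes. Monocytes had the lowest level of both H2-DO chains. For H2-Ob the scale drops retained-intron transcripts, which held 56.0% of the gene in monocytes (0.903% to 100% per library) and 42.6% in HSPCs. Its order there cannot be told apart from the division of reads between transcripts. H2-Oa stood there at 7.66 ± 0.741 TPM of protein-coding transcripts in monocytes, below HSPCs (21.3 ± 8.67), T cells (56.7 ± 6.62), NK cells (101 ± 26.4) and B cells (1116.7 ± 288), with no overlap between neighbours. H2-Ob stood at 2.05 ± 1.78 in monocytes and 4.91 ± 0.992 in HSPCs, without overlap, while its T cells (18.8 ± 1.93) and NK cells (21.5 ± 3.98) overlapped. For H2-Aa the NK cells, at 1457 ± 399, stayed far above the monocytes, at 55.8 ± 13.1. H2-Ab1 was at 25.0 ± 3.61 in monocytes, where it overlapped the T cells (27.2 ± 25.3) but not the HSPCs (19.9 ± 0.690). H2-Eb1 was at 6.92 ± 9.22 in monocytes, 26.3 ± 25.0 in T cells and 4.65 ± 2.96 in HSPCs. For H2-Eb1 the scale drops a transcript annotated as a target of nonsense-mediated decay. That transcript held 58.3% of the gene in monocytes (1.82e-05% to 100% per library), 0.0139% in T cells and 0% in HSPCs. The place of monocytes for H2-Eb1 thus cannot be told apart from the division of reads between transcripts. Monocytes kept a place above NK cells for H2-DMa and for H2-DMb1, which was at 74.6 ± 21.0 in monocytes, 41.1 ± 3.98 in NK cells and 225 ± 38.8 in B cells. H2-DMb2 was at 2249.6 ± 294 in B cells against 15.3 ± 3.08 in monocytes, and Ciita at 439 ± 30.8 against 1.32 ± 0.289.

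The first comparison set B cells against the other lymphocytes of the spleen, which shared tissue and platform. Each of the 10 genes was called higher in B cells by limma on log2(TPM + 1) with Benjamini-Hochberg adjustment over 12930 genes, where 16.7% of all genes were called higher and 7.22% lower. The largest difference was that of Cd74, at 5.39 ± 0.239 on the log2 scale (SE, adjusted p = 1.77e-09), followed by H2-Aa at 4.86 ± 0.181 (limma, adjusted p = 4.24e-10) and H2-DMb2 at 4.82 ± 0.180. The smallest were Ciita at 2.99 ± 0.138 and H2-DMb1 at 2.44 ± 0.154, on a scale that understates the change of genes with low levels. On the protein-coding scale Ciita (4.37) and H2-DMb1 (3.81) lay above H2-Eb1 (3.78), H2-DMa (3.58) and H2-Ob (3.51). In TPM the median over the 10 genes was 4.01, against 0.08 over all genes tested. All 14 B cell markers were also called higher, with a median of 3.88.

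The rest of the class II pathway was fixed as a list of 22 genes, and 21 of them passed the filter of 1 TPM in 3 libraries. In B cells 10 were called higher and 2 lower than in T and NK cells. The largest increases were those of Ctss, the cathepsin that trims the invariant chain (2.43 ± 0.186), Marchf1, a ubiquitin ligase that removes class II from the surface (2.19 ± 0.123), and the costimulatory receptor gene Cd40 (2.11 ± 0.224). Both genes called lower were Ctsd, a lysosomal protease, which fell by 1.30 on the log2 scale, and Marchf8, which fell by 0.71.

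NK cells were next compared with T cells. Each of the 10 genes was called higher in NK cells by limma without pairing, in a setting where 35.9% of all genes were called higher and 2.61% lower. That background rested on single libraries, and ran from 15.6% higher without T cell replicate 1, over 16.1% without NK replicate 3 and 20.0% without NK replicate 2, to 54.2% without NK replicate 1. Cd74 differed by 5.30 ± 0.276 (adjusted p = 3.30e-08), H2-Aa by 4.79 ± 0.209 (limma, adjusted p = 5.00e-09), H2-Ab1 by 4.07 ± 0.266 and H2-Eb1 by 4.04 ± 0.210. The other 6 differed by 0.66 to 1.56, on a scale that understates the change of genes with low levels. On the protein-coding scale H2-DMb2 differed by 3.11 ± 0.419, Ciita by 3.04 ± 0.688 and H2-DMb1 by 2.80 ± 0.647. H2-DMa (0.98 ± 0.148) and H2-Oa (0.80 ± 0.262) differed by less there, and the 4 chain genes by 4.65 to 6.26. H2-Ob, the smallest in TPM at 0.66 ± 0.192, lost its call on the protein-coding scale (limma, adjusted p = 0.791), after quantile normalization and with a pseudocount of 10. Its call was also lost with the compared libraries alone (limma, adjusted p = 0.118) and without T cell replicate 1 or NK replicate 2 or 3. Of the pathway list 14 genes were called higher in NK cells and 0 lower, led by the thiol reductase gene Ifi30 (1.78 ± 0.178), Cd83 (1.74 ± 0.204), which marks activated antigen-presenting cells, and Ctsd (1.67 ± 0.321).

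The class II level of NK cells was large in relation to that of B cells. As percent of the B cell mean, the 4 chain genes stood at 14.8% (Cd74), 16.2% (H2-Ab1), 17.5% (H2-Aa) and 20.8% (H2-Eb1), with Ciita at 12.9%. The 14 B cell markers stood at 1.84% to 10.04% in the same libraries, with a median of 5.92%, and H2-DMb2 (4.50%), H2-Ob (6.24%) and H2-Oa (8.37%) lay within that range. H2-DMa, at 12.8%, and H2-DMb1, at 23.0%, were above it. A common factor on the NK libraries would move all these percentages alike.

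Several marker lists of other cells also summed higher in NK cells than in T cells. The summed B cell markers were 18.4 to 28.6 TPM in NK cells against 2.19 to 3.19 in T cells, and 13 of the 14 were called higher. The 11 dendritic cell markers summed to 20.1 to 24.5 TPM in NK cells, 5.59 to 17.9 in T cells and 7.51 to 12.8 in B cells. Their highest genes in NK cells were Ccr7 (8.70 ± 1.01), Itgax (6.60 ± 2.23), which NK cells also express, and Bst2 (2.19 ± 0.600). Ccr7 stood at 122.9% of the B cell mean in NK cells but at 151.1% in T cells. The scarcer Flt3 (707.5% against 13.5%), Zbtb46 (1140% against 25.4%), Batf3 (1632% against 47.3%) and Xcr1 (1516% against 17.5%) were higher in NK cells. So were Clec9a (1142% against 0%), Siglech (658% against 22.1%) and Cd209a (189% against 0%), all with B cell means of up to 0.119 TPM. Of the 7 dendritic cell markers that passed the filter 3 were called higher in NK cells, beside 35.9% of all genes. Their median difference on log2(TPM + 1), a scale that understates the change of genes with low levels, was 0.37, against 0.40 over all genes. Each of the 11 was above 0 in every NK library. Neutrophil markers summed to 14.8 to 19.1 TPM in NK cells against 0.0875 to 0.299 in T cells, and HSPC markers to 7.39 to 15.5 against 1.15 to 2.01. Of 6 neutrophil markers tested 2 were called higher, with a median difference of 0.13. Of 6 HSPC markers tested 3 were, with a median of 0.60. The same limit of the scale holds for the neutrophil and HSPC medians. The part of these cell types in the NK result was not tested, and in bulk samples fewer cells of a type and less RNA per cell cannot be told apart.

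**Figure D3:**
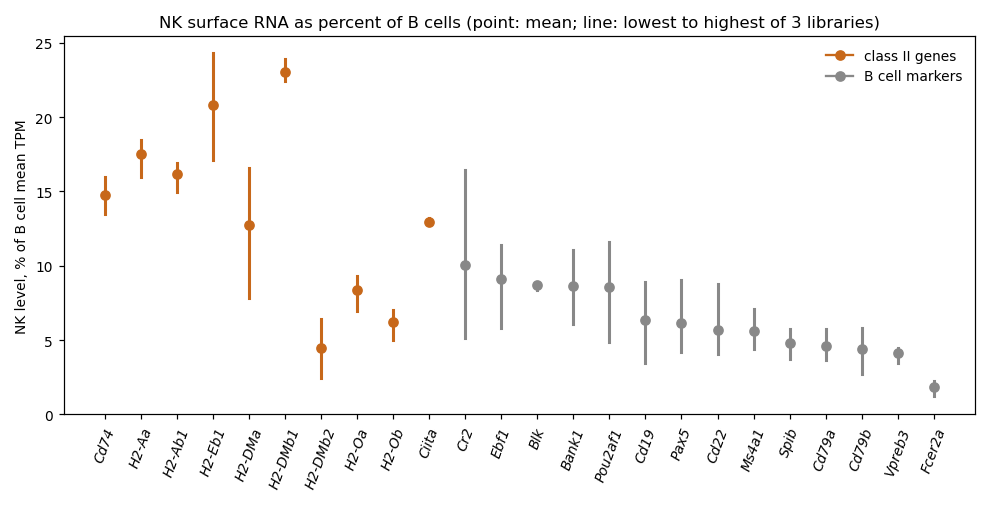
Surface level in NK cells as percent of the mean B cell TPM, for the 10 class II genes (orange) and 14 B cell markers (grey), where points are means and lines run from the lowest to the highest of 3 NK libraries. Cd74, H2-Aa, H2-Ab1, H2-Eb1, H2-DMb1, H2-DMa and Ciita have means above those of the B cell markers, while H2-DMb2, H2-Oa and H2-Ob lie among them.

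Monocytes were compared with HSPCs from the same tissue. In TPM each of the 10 genes was called higher in monocytes, but so were 91.4% of all genes (0.913% were called lower), so that this count says little of the class II genes. Their median difference was 1.99 and that of all genes 2.32, an order that turned with a pseudocount of 0.1 (4.08 against 3.45), without rRNA (2.04 against 1.18) and on the protein-coding scale (0.81 against 0.18). H2-DMb1 (4.17 ± 0.178), Cd74 (4.10 ± 0.276) and H2-DMa (3.74 ± 0.234) differed most. Ciita (0.50 ± 0.159) and H2-Ob (0.69 ± 0.192) differed least, on a scale that understates the change of genes with low levels. With levels rescaled to protein-coding transcripts, where 27.0% of genes were called higher and 15.2% lower, 5 of the 10 were called higher and 2 lower. The 5 were H2-Aa (2.53 ± 0.357), H2-DMb1 (2.31 ± 0.647), Cd74 (2.06 ± 0.364), H2-DMb2 (1.68 ± 0.419) and H2-DMa (1.03 ± 0.148). Marker lists of other cells also summed higher in monocytes than in HSPCs. Neutrophil markers summed to 952 to 1021 TPM in monocytes and 5.10 to 27.0 in HSPCs, and dendritic cell markers to 46.6 to 50.8 against 2.82 to 5.31. In TPM their median differences were 4.32 and 2.31, beside 2.32 over all genes. The part of these cells in the comparison was not tested. Both H2-DO chains turned on the protein-coding scale, with H2-Oa at -1.30 ± 0.262 (limma, adjusted p = 0.00113) and H2-Ob at -1.20 ± 0.430 (limma, adjusted p = 0.0366). For H2-Ob that scale leaves out the retained-intron transcripts, which carried much of its level.

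Of the pathway list 20 of 21 genes were called higher in monocytes than in HSPCs in TPM, beside the 91.4% of all genes. On the protein-coding scale, a count added after the data were seen, 12 were called higher and 2 lower, beside 27.0% and 15.2% of all genes. The largest differences in TPM were those of Ctss (6.47 ± 0.215), Ifi30 (5.89 ± 0.178) and Ctsb (5.10 ± 0.193). Ctss stood at 118 ± 12.8 TPM in monocytes, against 15.1 ± 1.94 in B cells. Ifi30 stood at 97.0 ± 4.49 and 5.79 ± 1.37, and the protease gene Ctsb at 88.9 ± 1.88 and 1.55 ± 0.414. The summed level of the pathway list was 571 to 624 TPM in monocytes and 51.0 to 78.4 in B cells, the reverse of the order of the class II chains, although the scale of the monocyte libraries bears on this as well.

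B cells were lastly set against monocytes. Of the 10 genes 8 were called higher in B cells and 1, H2-DMb1, lower, while over all genes 4.45% were called higher and 87.7% lower and the median difference was -2.04. H2-Ab1 had the largest difference, at 5.07 ± 0.266 (limma, adjusted p = 2.80e-10), then H2-Eb1 at 4.74 ± 0.210 and Cd74 at 4.53 ± 0.276. H2-DMb1 was the lower in B cells, with a difference of -1.16 ± 0.178 (limma, adjusted p = 1.94e-05), and H2-DMa differed by -0.30 ± 0.234 (95% interval -0.80 to 0.20, limma, adjusted p = 0.231). On the protein-coding scale both changed sign, and H2-DMa was higher in B cells by 2.53 ± 0.148 (limma, adjusted p = 5.46e-09) and H2-DMb1 by 1.60 ± 0.647 (limma, adjusted p = 0.0526). The other 8 were called higher in B cells under every scaling tried, by 3.28 to 8.39. Of the pathway list 3 genes were higher in B cells (H2-Eb2 at 2.05 ± 0.0931, Cd83 at 1.20 ± 0.204 and Cd40 at 0.72 ± 0.259) and 17 lower, led by Ctsb (-5.15 ± 0.193), Ctsd (-4.66 ± 0.321) and Ifi30 (-3.87 ± 0.178). On the protein-coding scale 5 were higher and 8 lower, beside 14.9% and 35.3% of all genes.

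**Figure D4:**
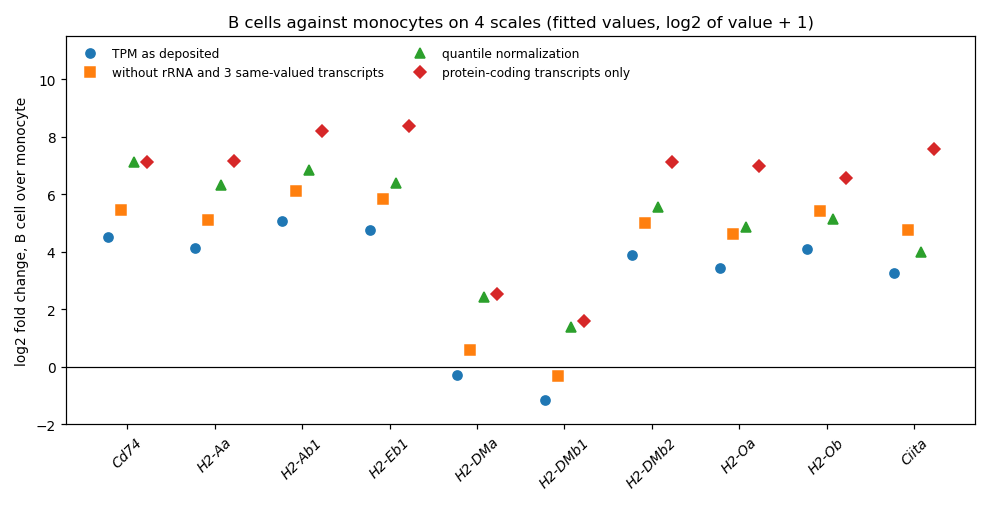
Fitted log2 fold change of B cells over monocytes for each gene on 4 scales: TPM as deposited, TPM without rRNA and 3 same-valued transcripts, quantile-normalized TPM, and protein-coding transcripts only. Points above 0 are higher in B cells, and only H2-DMa and H2-DMb1 have points on both sides of 0.

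The surface tables list 54 transcripts of these genes, and the annotated type of transcript that carried the level differed between genes. In B cells 97.0% ± 0.664 of H2-Aa and 96.4% ± 0.568 of H2-DMa lay on protein-coding transcripts (SD, n = 3). Retained-intron transcripts held 24.1% ± 2.21 of Cd74 in B cells and 32.4% ± 5.32 in NK cells, and 1 such transcript had 181 ± 25.4 TPM in B cells. For H2-Ab1 they held 9.07% ± 2.78 in B cells and 23.9% ± 2.96 in NK cells, ranges that did not overlap.

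H2-Ob was carried mainly by such transcripts, with 67.6% ± 7.36 in B cells and 70.1% ± 5.83 in NK cells. H2-Ob-204 alone had 16.1 ± 2.44 TPM in B cells, against 5.70 ± 2.60 for the protein-coding H2-Ob-201. In H2-Eb1, a transcript annotated as a target of nonsense-mediated decay held 62.6 ± 5.39 TPM in B cells, against 29.9 ± 5.46 for the protein-coding H2-Eb1-203. Its share of the gene was 61.6% ± 5.44 in B cells and 37.1% ± 8.21 among NK libraries. The division of reads between transcripts of a gene is an estimate, and these shares were not tested.

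By the rule set for likeness, the 5 genes whose log2(TPM + 1) followed that of Cd74 most closely over the 15 libraries were Cd83 (r = 0.979), Il4i1 (0.972), Dennd3 (0.956), Relb (0.954) and Cxxc5 (0.948). All 12920 genes tested were searched, the members left out. Cd83 measured 5.05 ± 1.58 TPM in B cells, 2.57 ± 0.215 in NK cells, 1.65 ± 0.715 in monocytes and 0.0694 ± 0.0191 in T cells. Il4i1, an enzyme of amino acid breakdown, measured 7.15 ± 0.569, 3.18 ± 0.348, 0.766 ± 0.182 and 0.0689 ± 0.0406 in the same order. These libraries share cell type within groups of 3, so the correlations mainly describe the order of 5 group means.

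In PBMCs the class II genes were measured in RSEM expected counts, in libraries of 4686387 to 9055761 counts. The 10 genes took 0.0319% to 0.0453% of a library, in which a ribosomal RNA gene held most of the counts, and the precision for the scarcer members is low. Cd74 had 775 to 1816 counts, H2-Aa 141 to 336, H2-Ab1 137 to 346, H2-Eb1 132 to 364 and Ciita 133 to 246. H2-DMb2 had 158 to 282, H2-Ob 70 to 184, H2-DMa 69 to 154, H2-DMb1 19 to 45 and H2-Oa 15 to 55. Levels per length were highest for Cd74, at 36.9 to 54.2 TPM, followed by H2-Aa at 7.96 to 11.8 and H2-Ab1 at 7.48 to 11.8.

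None of the 10 genes was called between groups by edgeR, where 2.36% of all genes were called for WT against ct, 0.705% for Y against ct and 1.25% for Y against WT. At an unadjusted p below 0.05, edgeR gave 1, 2 and 3 of the 10 in the same order, and DESeq2 gave 0, 1 and 1. The 3 comparisons share libraries and are given side by side. Their median log2 differences over the 10 genes were 0.02, -0.08 and -0.08.

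H2-Eb1 came nearest to a call. It measured 32.8, 41.0 and 36.5 CPM (counts scaled to library size) in ct, with WT at 43.3, 35.5 and 30.7 and Y at 28.2, 30.3 and 29.4. All 3 Y libraries lay below every library of ct and WT. The difference of Y from WT was -0.43 ± 0.102 on the log2 scale (edgeR, adjusted p = 0.0548), and that of Y from ct was -0.36 ± 0.103 (edgeR, adjusted p = 0.184). Over the alternatives the adjusted p of Y against WT ran from 0.00801 (edgeR, no filter on low counts) to 0.282 (edgeR, without Y replicate 3), and it was 0.0281 without ct replicate 2 and 0.0475 without ct replicate 3. WT and ct differed by 0.06 ± 0.0981 (95% interval -0.15 to 0.27). The neighbouring chain genes H2-Aa (-0.18 ± 0.0834) and H2-Ab1 (-0.22 ± 0.103) were lower in Y than in WT by less and were not called.

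The other class II genes gave the following intervals. Cd74 measured 181, 186 and 207 CPM in ct, with WT at 216, 179.7 and 158, Y at 165, 184 and 193 and overlap among all groups. Its 95% interval was -0.16 to 0.20 for WT against ct and -0.30 to 0.06 for Y against ct. H2-Oa, with few counts, differed by 0.54 ± 0.259 in WT and 0.52 ± 0.269 in Y from ct, and its intervals reach from below 0 to 1.09. H2-Ob differed by -0.24 ± 0.113 and -0.25 ± 0.115 in the same comparisons (edgeR, adjusted p = 0.415 and 0.553). The estimates of H2-DMa, H2-DMb1, H2-DMb2 and Ciita lay within 0.22 of 0 in each comparison, but their intervals were wider. That of H2-DMb1 ran from -0.53 to 0.36 for WT against ct, and that of H2-DMa from -0.49 to 0.06 for Y against WT.

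Of the 22 pathway genes tested in PBMCs, 1 was called for WT against ct, 0 for Y against ct and 1 for Y against WT. March8, a ubiquitin ligase that acts on membrane proteins, was lower in WT than in ct, with a difference of -0.73 ± 0.179 (edgeR, adjusted p = 0.0410), with 5.83 ± 0.502 against 10.2 ± 1.27 CPM. Cd83 was lower in Y than in WT, with a difference of -0.87 ± 0.183 (edgeR, adjusted p = 0.0259), with 5.18 ± 1.07 against 8.74 ± 1.51 CPM. The B cell markers, of which 0 of 14 were called in each comparison, summed to 351 to 377 CPM for ct, 295 to 416 for WT and 348 to 389 for Y. Neutrophil markers summed to 218 to 230.2 CPM in Y, above 83.7 to 107 in ct and 59.2 to 77.0 in WT, and their part in the H2-Eb1 values was not tested.

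**Figure D5:**
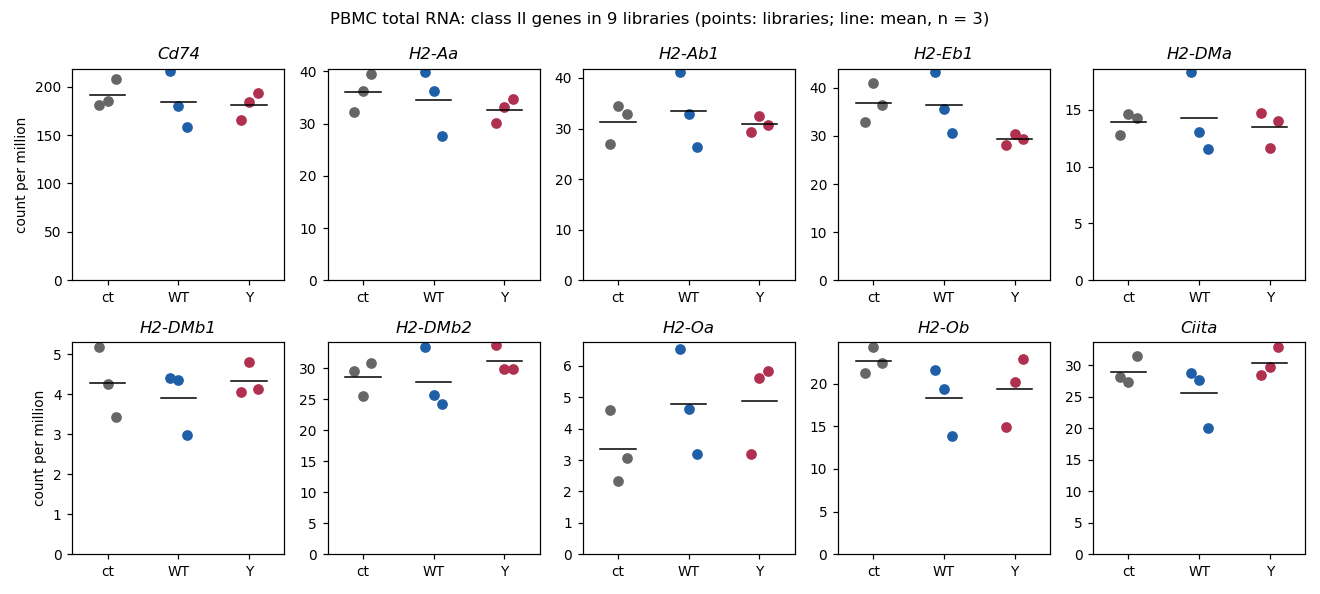
Level of the 10 genes in PBMC total RNA in CPM on axes that start at 0, with 1 point per library and a line at the mean of 3 libraries in ct, WT and Y. The groups overlap for most genes, and the 3 Y libraries of H2-Eb1 (28.2 to 30.3) lie below all others.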

How the data were processed

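Surface RNA was measured in 15 libraries of 5 murine cell types and total RNA in 9 PBMC libraries, 3 per group, and groups were taken from the labels. For the surface libraries the authors trimmed reads, removed duplicates with the same barcode and deposited TPM per transcript from kallisto (mm10 per the submitters' notes, murine transcript set not given in the sources used here). The monocyte table lists 149488 transcripts, against 102168 in a table of the other types. TPM were summed by gene. For PBMCs the authors deposited expected counts and TPM per gene from RSEM, and the submitters' notes also name Trim Galore, STAR and featureCounts, without versions. These estimated counts entered the tests rounded to integers. Library totals were 4686387 to 9055761. Counting error alone therefore limits members with few counts.

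Surface values were tested as log2(TPM + 1) with limma 3.58.1 on all 15 libraries, for the 12930 genes above 1 TPM in at least 3 libraries. PBMC counts were tested with edgeR 4.0.16 (quasi-likelihood test, TMM normalization, default expression filter, 11635 genes), and DESeq2 1.42.0 was an alternative, in R 4.3.3. P-values were adjusted by Benjamini-Hochberg over all genes tested, and calls were made at 0.05. Intervals are 95%. Ratios within libraries were compared by exact two-sided permutation tests. On simulated data with 200 changed genes the NK against T cell fit recovered 67% of changes of 1 and 93% of changes of 2 on the log2 scale, and the Y against ct fit 67% and 94%. The text names all 10 members, of the pathway list the called genes with the 3 largest changes in each direction, and the 5 genes most correlated with Cd74. H2-Eb2 meets this rule for B cells against monocytes only. H2-Ea, the marker genes named and the other values of H2-Eb2 lie outside it and were chosen after their values were seen. Members and lists were chosen with earlier results of these data known. Alternatives covered pseudocount, filters, scaling, the libraries in the fit, the replicate block and leaving out each replicate. The labels number the replicates without saying what a number stands for. The deviations of same-numbered T cell and NK libraries correlated at 0.472, 0.213 and 0.318, so these look paired on the data alone. The main fits were nonetheless unpaired, and only the replicate block, an alternative, used the numbers. Other compared groups did not pair (-0.266 to 0.049 on the surface and -0.065 to 0.067 in PBMCs). Columns of per-sample values left unused numbered 0.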

Additional observations from a re-analysis of the deposited data

How the results depend on the processing

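For single genes, 968 of the alternative surface values kept direction and call, 18 lost the call, 1 gained it and 11 changed direction, and in PBMCs these numbers were 426, 0, 5 and 19. Scaling mattered most where monocytes were compared, since it moved the median of all genes by -2.14 (protein-coding transcripts), -1.14 (without rRNA) and -2.32 (quantile) for monocytes against HSPCs and by 1.67, 0.41 and 2.04 for B cells against monocytes.

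For monocytes against HSPCs, rescaling to protein-coding transcripts left 5 members called higher and 2 lower, with H2-Eb1 at -0.26, H2-Oa at -1.30 and H2-Ob at -1.20. For H2-Eb1 and H2-Ob that scale leaves out transcripts that carried much of their level in monocytes. Quantile normalization left 4 higher and 2 lower, with H2-Oa at -0.56, H2-Ob at -0.36 and Ciita at -0.011. For B cells against monocytes, 2 members were called lower with a pseudocount of 10, and 0 on the protein-coding scale, without rRNA and after quantile normalization. H2-DMa was then at 2.53, 0.59 and 2.44 in that order, and H2-DMb1 at 1.60 on the protein-coding scale and 1.37 after quantile normalization. Over all genes, protein-coding scaling gave 3683 higher and 2083 lower for monocytes against HSPCs (11813 and 118 as deposited) and 2042 and 4829 for B cells against monocytes (575 and 11343). It gave 2216 and 2872 for B cells against T and NK cells (2161 and 934), and quantile normalization gave 1991 and 1697 for NK against T cells (4644 and 337).

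For Y against WT in PBMCs, 1 member (H2-Eb1) was called lower with no filter, with rRNA genes left out and with the compared libraries alone. Leaving out each replicate gave 0 to 1 there, 9 to 10 members higher in NK against T cells and in monocytes against HSPCs (Ciita was lost without Monocyte replicate 3, limma adjusted p = 0.0754), and the same counts as with all libraries elsewhere. Shares of all genes called moved more. Those higher in B cells than in T and NK cells fell from 16.7% to 9.65% without B cell replicate 2 and 11.1% without B cell replicate 1, beside the NK values given above. In PBMCs 56 to 126 genes were then called higher and 111 to 171 lower for WT against ct (89 and 186 with all libraries), 17 to 116 and 17 to 51 for Y against ct (31 and 51), and 26 to 65 and 26 to 112 for Y against WT (51 and 95). Directions that turned without 1 library belonged to uncalled PBMC differences. For WT against ct the ranges were -0.039 to 0.043 (H2-Aa), -0.26 to 0.12 (H2-DMb1), -0.030 to 0.13 (H2-DMb2) and -0.0047 to 0.088 (Cd74). For Y against ct they were -0.21 to 0.17 (H2-DMb1), -0.14 to 0.033 (H2-Ab1) and -0.019 to 0.15 (H2-DMb2). For Y against WT they were -0.14 to 0.16 (H2-Oa), -0.098 to 0.093 (H2-Ob), -0.046 to 0.12 (H2-DMb2) and -0.056 to 0.14 (H2-DMb1).

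With the replicate block the counts of members called were 10, 10, 10 and 8 higher and 1 lower in the surface comparisons and 0 in each PBMC comparison, so that it changed no member's call, and H2-Oa turned to 0.016 for Y against WT. With the compared libraries alone, Ciita and H2-Ob did not pass the filter for monocytes against HSPCs, and 8 members were tested. The causes of these changes were not tested.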

Other observations

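In PBMCs the gene annotated as H2-Ea-ps, a pseudogene form of the I-E α chain gene, was read at 159 to 357 counts per library, or 9.96 to 12.6 TPM. This was 1.13 to 1.98 times the TPM of H2-Eb1 in the same library. On the surface of B cells H2-Ea averaged 0.0529 TPM. The strain of the PBMC donors is not given, the measurements differ in RNA and pipeline, and the cause of the contrast was not tested. Over the 9 PBMC libraries, the genes whose level followed H2-Ab1 most closely included Ehd1 (r = 0.981), Arrdc4 (0.968), Cyp27a1 (0.963) and Pik3ap1 (0.950), given as a description.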
